A study of Saccharomyces cerevisiae with 24 samples.

Results

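The 38 nuclear genes described here encode subunits of the mitochondrial respiratory chain and ATP synthase of budding yeast, Saccharomyces cerevisiae, taken by their systematic names out of 6369 genes in the deposited count table. They comprise 13 genes of ATP synthase, 9 of cytochrome c oxidase, 9 of the cytochrome bc1 complex, 2 of cytochrome c, 4 of succinate dehydrogenase and NDI1, an NADH dehydrogenase. Counts were available for 3 strains, ∆RPL22A, ∆RPL22B and WT, the first lacking RPL22A and the second lacking RPL22B, which are paralogous genes for a protein of the large ribosomal subunit. All strains were in log phase at an optical density of 0.6 to 0.8 and had been given cycloheximide, which holds ribosomes on their mRNA. Polyadenylated RNA was sequenced from 4 pools of each strain, the unfractionated input and 3 sucrose gradient fractions that hold the monosome, the low (light) polysomes and the high (heavy) polysomes. There were 2 biological replicates of each of the 12 groups, giving 24 libraries. The labels used here give neither the parent strain nor the carbon source of the cultures.

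Electrons from NADH and succinate enter this chain at NDI1 and succinate dehydrogenase, pass through ubiquinone to the bc1 complex and through cytochrome c to cytochrome c oxidase, and the proton gradient built on the way drives ATP synthase. Budding yeast has no multisubunit complex I, and NDI1 takes its place as a lone polypeptide. Most of these subunits are made on cytosolic ribosomes and imported, while a few core subunits are encoded in mitochondrial DNA and are not among these genes. On glucose, yeast is known to keep this set repressed, and transcription factors of the HAP family raise it when cells respire. An mRNA in a heavy gradient fraction carries more ribosomes than one in a light fraction, and a short reading frame has room for fewer.

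Total counts per library ran from 2435632 to 10947937, but 62.5% to 97.1% of them fell on ribosomal DNA rows, which left 314212 to 1950344 counts on other rows. The respiratory genes took 0.164% to 0.391% of the counts on other rows. RPL22B had 6354 counts in all ∆RPL22A libraries, 0 in all ∆RPL22B libraries and 1329 in WT libraries, whereas RPL22A, with few counts throughout, had 3 counts in ∆RPL22A, 40 in ∆RPL22B and 25 in WT. The deletion strains also differed from WT at other loci. MF(ALPHA)1, the mating pheromone of alpha cells, had 27891 counts in ∆RPL22A, 16785 in ∆RPL22B and 11 in WT, and LYS2 had 2 counts in ∆RPL22A, 0 in ∆RPL22B and 955 in WT. A difference of either deletion strain from WT therefore cannot be told apart from these background differences. The 5 libraries ∆RPL22B monosome replicate 1, ∆RPL22B light replicates 1 and 2, WT light replicate 1 and WT heavy replicate 1 resembled a library of another strain in the same pool more than their own replicate. Over all tested genes, ∆RPL22B light replicate 1 correlated with its replicate at r = 0.933, and its respiratory genes summed to 436 CPM (counts scaled to a common library total), against 907 in replicate 2. Earlier work on these data found 4 libraries closest to another pool, namely ∆RPL22A input replicate 1, ∆RPL22A light replicate 2, ∆RPL22B light replicate 1 and WT heavy replicate 2, and counts without these 4 are given beside the results they touch. In the correlations computed here all 4 except ∆RPL22B light replicate 1 were closest to their own replicate, and the closest other library of ∆RPL22A input replicate 1 was ∆RPL22A light replicate 2, at r = 0.947.

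Coding sequences of the shortest members with high levels are shown first, because reading frame length ran with the pool in which a gene was found. They are ATP18 and ATP15, of ATP synthase, and COX9, of cytochrome c oxidase, from the RefSeq R64 genome, with start and stop codons in capitals.
ATP18: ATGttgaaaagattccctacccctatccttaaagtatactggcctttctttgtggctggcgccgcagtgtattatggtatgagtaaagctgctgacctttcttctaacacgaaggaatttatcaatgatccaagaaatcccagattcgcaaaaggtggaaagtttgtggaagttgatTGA
COX9: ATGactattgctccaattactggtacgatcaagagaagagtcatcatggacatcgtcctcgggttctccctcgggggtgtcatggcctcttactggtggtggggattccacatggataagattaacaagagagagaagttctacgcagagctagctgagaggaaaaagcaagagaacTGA
ATP15: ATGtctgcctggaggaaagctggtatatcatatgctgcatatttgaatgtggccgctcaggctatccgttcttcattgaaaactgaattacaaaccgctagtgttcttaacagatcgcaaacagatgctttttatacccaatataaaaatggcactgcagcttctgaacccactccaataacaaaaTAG
ATP18 lies at chrXIII:103983-104162 on the minus strand, COX9 at chrIV:334217-334396 on the minus strand and ATP15 at chrXVI:30079-30267 on the plus strand, each as an uninterrupted reading frame. They are 180, 180 and 189 bases long, against 1923 bases for SDH1, the longest member. COX5B, QCR9 and QCR10 are the 3 members with an intron.

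In unfractionated RNA small ATP synthase and cytochrome c oxidase genes led the order of levels per length, while CYC7, SDH1, SDH2 and NDI1 stood at its low end. Levels are given as CPM, the share of each library's counts scaled by TMM (trimmed mean of M values), and, between genes, as CPM per kilobase of coding sequence. In WT input, ATP18, the i/j subunit of the ATP synthase membrane sector, averaged 32.7 ± 2.57 CPM per kilobase (SD, n = 2 in this paragraph), and COX9, subunit VIIa of the oxidase, 30.3 ± 0.840. ATP2, the catalytic beta subunit of F1, averaged 24.6 ± 3.52, ATP15, its epsilon subunit, 24.3 ± 5.64, and QCR6 averaged 19.1 ± 2.62. These neighbours in the order overlapped except that both COX9 libraries lay above both of ATP2. At the low end stood NDI1 with 2.31 ± 0.351, SDH2, the iron-sulfur subunit of succinate dehydrogenase, with 2.04 ± 0.331, and SDH1, its flavoprotein, with 1.44 ± 0.0963. CYC7, the minor cytochrome c, was lowest with 0.507 ± 0.119. By median the 13 ATP synthase genes had 15.7 CPM per kilobase in WT input, the 9 oxidase genes 11.2, the 9 bc1 genes 7.88 and the 4 succinate dehydrogenase genes 4.49, with overlapping ranges. In the ∆RPL22A and ∆RPL22B inputs the leading 3 genes were ATP18, ATP15 and COX9, and CYC7 was the lowest gene there too.

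None of the respiratory genes passed the test between strains in input. CYC7, with 49 counts in all, was too low to test, so that 37 of the 38 members were tested by edgeR's quasi-likelihood test, and a gene is called here at a Benjamini-Hochberg adjusted p under 0.05 over all 5380 tested genes. In input ∆RPL22A against WT, 0 of 37 were called, while 4.65% of all tested genes were, and 6 members had an unadjusted p under 0.05. ∆RPL22B against WT gave 0 of 37 against 0.335% of all genes, with 1 member under the unadjusted threshold, and ∆RPL22A against ∆RPL22B gave 0 of 37 against 5.26%, with 6. DESeq2 called 0 members in each of these comparisons as well. Here and below, counts under the unadjusted threshold stand without the share of all tested genes and are not read as results. Summed over the members, input held 256 ± 39.6 CPM in ∆RPL22A, 250 ± 3.28 in ∆RPL22B and 233 ± 9.32 in WT (SD, n = 2). Counts from a culture do not tell less RNA per cell from fewer cells that hold it.

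Although no member was called, the input differences of ∆RPL22A ran with length. Against WT the 10 members of up to 300 coding bases had a median log2 difference of 0.54 and the 6 members over 1000 bases a median of -0.45. Other genes of the same lengths had medians of 0.47 and -0.22. Pearson's r between the log2 difference and log2 coding length was -0.71 over the 37 members and -0.39 over 5301 tested genes with a length, a description across genes that share the libraries. For ∆RPL22B against WT it was 0.01 over the members and 0.05 over all.

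Most members were higher in light polysomes than in input in every strain. In light polysomes over input, 22 of 37 members rose and 0 fell in ∆RPL22A, 27 rose and 2 fell in ∆RPL22B, and 27 rose and 3 fell in WT. Of all tested genes, 25.7% were called in ∆RPL22A, 33.0% in ∆RPL22B and 34.4% in WT, and 17.2% were called higher in ∆RPL22A, 20.7% in ∆RPL22B and 20.8% in WT. The members' median log2 difference was 1.14 in ∆RPL22A, 1.94 in ∆RPL22B and 2.17 in WT, while over all tested genes it was -0.04 in ∆RPL22A, -0.04 in ∆RPL22B and -0.12 in WT. In each strain 28 of 37 members had both light libraries above both input libraries, which held for 31.7% of all tested genes in ∆RPL22A, 32.7% in ∆RPL22B and 34.0% in WT. The ∆RPL22A count was 1 without input replicate 2 and 1 without light replicate 1, and 21 without light replicate 2. Leaving out any compared library gave 23 to 30 calls in ∆RPL22B and 28 or 29 in WT. Without the 4 libraries found closest to another pool, 23 rose and 0 fell in ∆RPL22A, and 27 rose and 3 fell in ∆RPL22B.

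By complex, all 9 cytochrome c oxidase genes rose in the light pool of ∆RPL22B and WT and 7 of them in ∆RPL22A. These oxidase genes have at most 468 coding bases. Of non-member genes of up to 300 bases, 38.3% were called higher in ∆RPL22A, 76.6% in ∆RPL22B and 77.8% in WT. Of those over 300 and up to 600 bases, 66.1% were called higher in ∆RPL22A, 80.5% in ∆RPL22B and 76.6% in WT. The counts by complex are thus not separated from coding length. Of the 13 ATP synthase genes, 8 rose in ∆RPL22A, 10 in ∆RPL22B and 10 in WT, and the fall of ATP1, the alpha subunit of F1, was called in ∆RPL22B and WT. Of the 9 bc1 genes 4 rose in ∆RPL22A, 5 in ∆RPL22B and 4 in WT, and QCR2, a core subunit, fell in ∆RPL22B and WT while COR1, the other core subunit, fell in WT. CYC1, the major cytochrome c, rose in all strains. SDH3 and SDH4, the membrane anchor subunits, rose in all strains, SDH2 rose in WT, and SDH1 and NDI1 were not called.

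ATP17, subunit f of the membrane sector, illustrates the rise. Its ∆RPL22A libraries had 38 and 16.4 CPM in the light pool against 10.7 and 7.15 in input. The ∆RPL22B libraries had 16.1 and 72 CPM in the light pool against 6.57 and 6.24 in input, and the WT libraries 49 and 41.3 against 5.47 and 6.22. Light libraries exceeded input libraries in every strain, but replicates of the light pool differed widely in both deletion strains. The log2 difference of light over input was 1.61 ± 0.44 (SE, adjusted p = 0.00854) in ∆RPL22A, 2.77 ± 0.46 (SE, adjusted p = 6.26e-05) in ∆RPL22B and 2.96 ± 0.48 (SE, adjusted p = 4.37e-05) in WT. The call in ∆RPL22A was lost without input replicate 2 (adjusted p = 0.134) and without light replicate 1 (adjusted p = 0.301). ATP1 had the opposite sign, with log2 differences of -0.61 in ∆RPL22A, where it was not called, -1.43 in ∆RPL22B and -1.24 in WT. Both genes were chosen as examples after their values were seen.

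**Figure D1:**
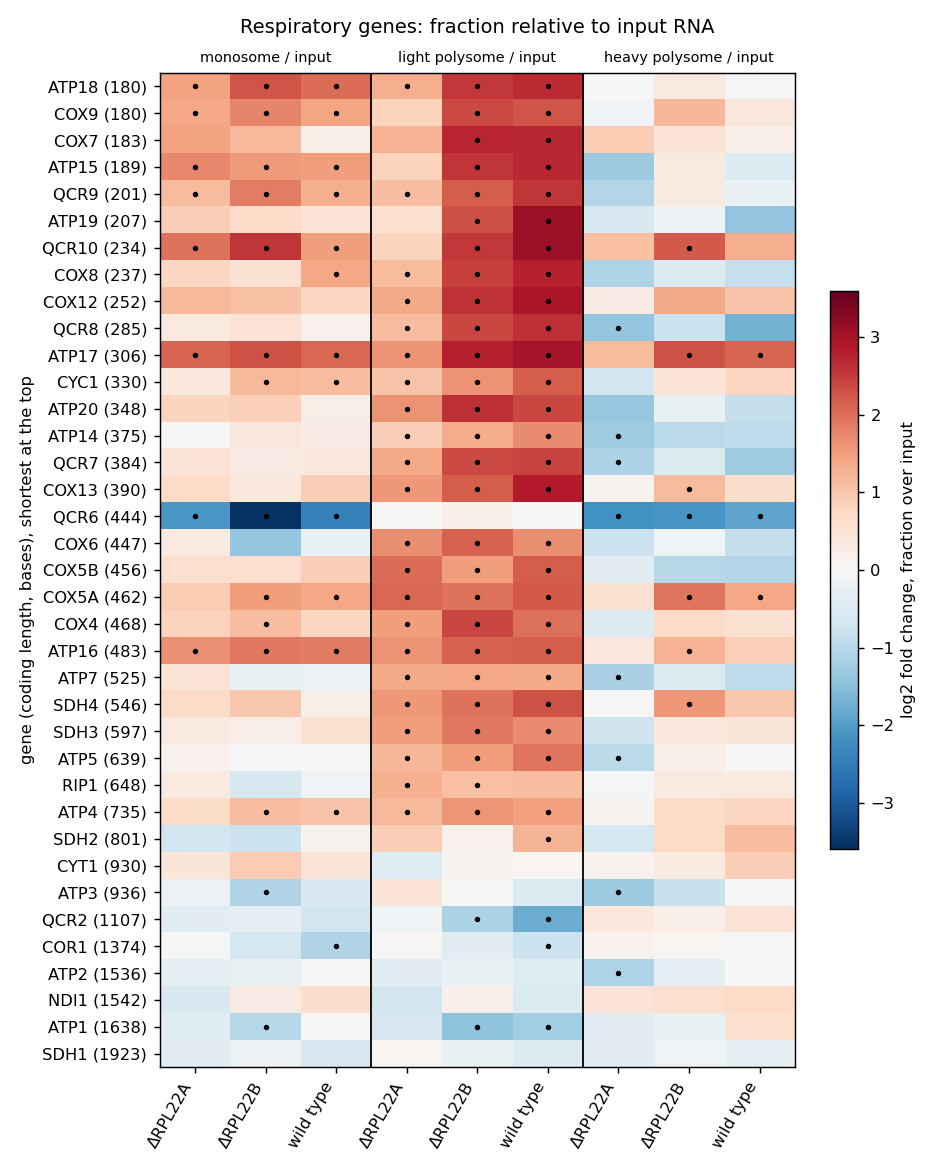
Log2 fold change of the monosome, light and heavy pools over input for the 37 tested genes (one row each, coding length in bases in brackets), with the strains ∆RPL22A, ∆RPL22B and wild type side by side in each block. Dots mark genes called at an adjusted p under 0.05; the light block is red to pale red for the genes of up to 600 bases, with QCR6 near white, and holds red, pale and blue rows for longer genes.

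The members' order in the light pool followed coding length, as did that of other genes. In WT the members of up to 300 bases had a median light over input log2 difference of 2.72, those over 300 and up to 600 bases 2.18, those over 600 and up to 1000 bases 1.16 and those over 1000 bases -0.65. Other genes in these length classes had medians of 2.29, 1.89, 0.67 and -0.56. From short to long, the classes held 10, 15, 6 and 6 members. In ∆RPL22A, the medians of the members were 1.11, 1.55, 1.02 and -0.26, and the shortest class was not the highest, while other genes had 1.09, 1.29, 0.58 and -0.36. In ∆RPL22B they were 2.5, 1.95, 0.61 and -0.33, and other genes had 2.05, 1.76, 0.57 and -0.42. Pearson's r between the log2 difference and log2 length over the 37 members was -0.59 in ∆RPL22A, -0.87 in ∆RPL22B and -0.88 in WT. Over 5301 genes it was -0.64 in ∆RPL22A, -0.77 in ∆RPL22B and -0.72 in WT.

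**Figure D2:**
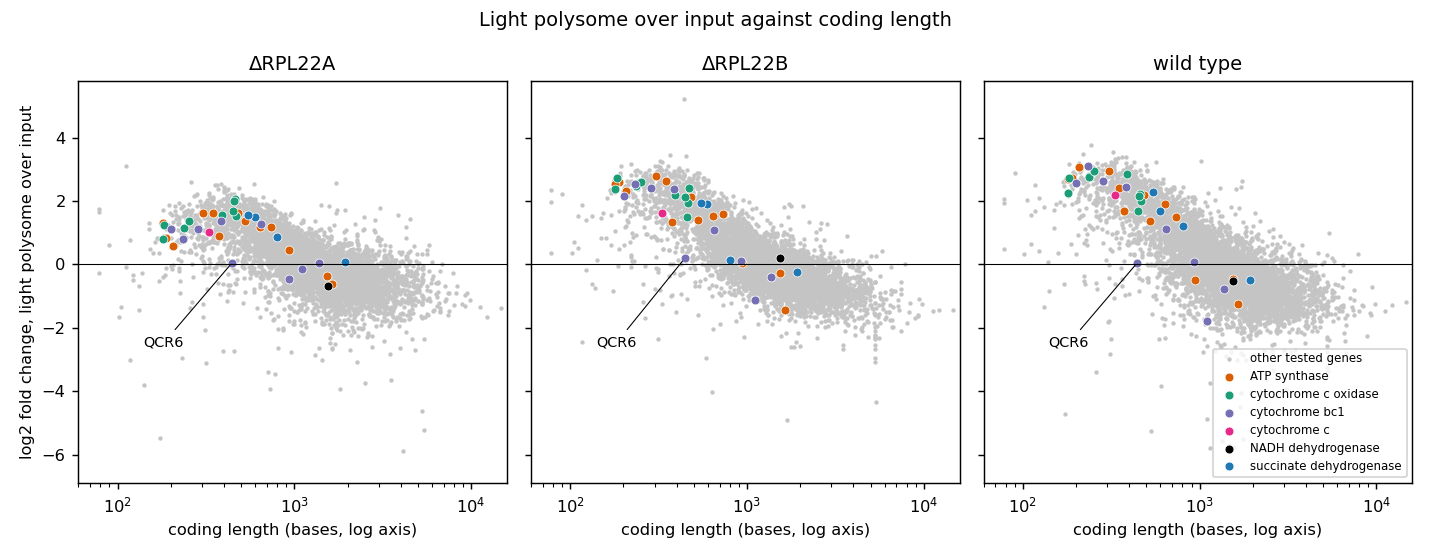
Log2 fold change of light polysomes over input (vertical axis) against coding length in bases (log axis) for all tested genes with a length (grey) and the 37 tested members (coloured by complex), in ∆RPL22A, ∆RPL22B and wild type. Most members under 1000 bases lie above 0, while QCR6 sits near 0 (0.05 in ∆RPL22A, 0.19 in ∆RPL22B and 0.05 in wild type).

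In the monosome over input, the calls were fewer and again fell mostly on short genes. In ∆RPL22A 7 members rose and 1 fell, in ∆RPL22B 11 rose and 3 fell, and in WT 11 rose and 2 fell. Of all tested genes 13.8% were called in ∆RPL22A, 29.5% in ∆RPL22B and 30.8% in WT. Of the 10 members of up to 300 bases, 5 rose in ∆RPL22A, 5 in ∆RPL22B and 6 in WT. Other genes of that length rose at 49.1%, 56.9% and 52.7% in the same order. Of the 15 members over 300 and up to 600 bases, 2, 5 and 4 rose, against 24.6%, 39.7% and 37.6% of other genes. The members' rises were thus not set apart from those of other genes of these lengths. ATP15, ATP16, ATP17, ATP18, COX9, QCR9 and QCR10 rose in every strain. Without ∆RPL22A input replicate 2 or monosome replicate 2 the count in ∆RPL22A was 2 and 3. It was 9 in ∆RPL22B without monosome replicate 1, and in WT 4 without input replicate 1, 7 without input replicate 2 and 8 without monosome replicate 1. In ∆RPL22A 17 rose and 1 fell without the 4 libraries found closest to another pool.

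In heavy polysomes over input the strains gave different counts. In ∆RPL22A 0 members rose and 8 fell, in ∆RPL22B 6 rose and 1 fell, and in WT 2 rose and 1 fell. Of all tested genes 16.8% were called in ∆RPL22A, 16.4% in ∆RPL22B and 10.3% in WT. The 8 that fell in ∆RPL22A were ATP2, ATP3, ATP5, ATP7, ATP14, QCR6, QCR7 and QCR8, and this count was 1 without input replicate 1 and 1 without heavy replicate 1. The 6 that rose in ∆RPL22B were ATP16, ATP17, COX5A, COX13, QCR10 and SDH4, and in WT ATP17 and COX5A rose. That count was 4 in ∆RPL22B without input replicate 1 or heavy replicate 1, and in WT 1 without input replicate 1 and 0 without heavy replicate 1. Leaving out the 4 libraries found closest to another pool, 2 rose and 9 fell in ∆RPL22A, and 7 rose and 1 fell in WT.

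Heavy polysomes against the monosome gave 0 higher and 15 lower members in ∆RPL22A, 1 higher and 3 lower in ∆RPL22B, and 2 higher and 9 lower in WT. Of all tested genes 25.7% were called in ∆RPL22A, 15.0% in ∆RPL22B and 22.3% in WT. Of the 10 members of up to 300 bases, 6 were lower in ∆RPL22A, 2 in ∆RPL22B and 5 in WT. Other genes of that length were lower at 55.7%, 37.1% and 49.1% in the same order. Of the 15 members over 300 and up to 600 bases, 7, 1 and 4 were lower, against 42.1%, 13.7% and 23.1% of other genes. The lower calls were thus not set apart from those of other genes of these lengths. The most negative member in ∆RPL22A was ATP15, with 3.6 and 1.82 CPM in heavy libraries against 16.3 and 32.3 in monosome libraries, a log2 difference of -3.03 ± 0.54 (SE, adjusted p = 3.14e-04). The most positive was NDI1, with 2.92 and 2.73 CPM in heavy libraries against 1.93 and 0.576 in monosome libraries, a difference of 1.01 ± 0.51 (SE, adjusted p = 0.15) that was not called. The heavy and monosome libraries did not overlap for either gene.

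In ∆RPL22B the most negative member was ATP18, with 9.2 and 6.38 CPM in heavy libraries against 31.4 and 26.1 in the monosome, a log2 difference of -1.90 ± 0.45 (SE, adjusted p = 0.00585). The most positive was SDH2, with 4.89 and 4.11 CPM in heavy libraries against 1.21 and 2.07 in the monosome, a difference of 1.49 ± 0.46 (SE, adjusted p = 0.0286). In both genes the libraries of the 2 pools were apart. In WT the most negative was COX8, a small subunit of the oxidase, with 2.54 and 1.27 CPM in heavy libraries against 8.73 and 8.89 in the monosome, a difference of -2.21 ± 0.53 (SE, adjusted p = 0.00461). The most positive was QCR2, with 7.91 and 13.3 CPM in heavy libraries against 5.22 and 3.81 in the monosome, a difference of 1.15 ± 0.34 (SE, adjusted p = 0.0175). Again the pools did not overlap, and among these extremes the short genes stood at the negative end and the longer ones at the positive end. Pearson's r of the heavy over monosome difference with log2 length was 0.70 over the members in ∆RPL22A, 0.54 in ∆RPL22B and 0.66 in WT. Over 5301 genes it was 0.63, 0.39 and 0.46, so the direction was shared with other genes. Calls numbered 3 in ∆RPL22A without heavy replicate 1, at most 2 in ∆RPL22B without any 1 of the compared libraries, and 1 to 7 in WT. The SDH2 call was lost by DESeq2 (adjusted p = 0.0994) and without any 1 of the compared libraries, and the QCR2 call without either monosome library or heavy replicate 2 of WT and without the 4 libraries found closest to another pool (log2 difference 0.70, adjusted p = 0.221). The ATP18 call was lost without ∆RPL22B monosome replicate 1 or heavy replicate 2, and the COX8 call without WT heavy replicate 2. In WT 1 member was higher and 5 were lower without the 4 libraries found closest to another pool.

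QCR6 (YFR033C), which encodes the acidic subunit of the bc1 complex, did not follow its length and was chosen for description after its values were seen. Its monosome libraries had 2.09 and 1.44 CPM in ∆RPL22A, 0.605 and 0.827 in ∆RPL22B and 1.8 and 0.846 in WT. Its heavy libraries had 1.56 and 2.05 CPM in ∆RPL22A, 2.01 and 1.85 in ∆RPL22B and 1.98 and 2.55 in WT. Its input libraries had 7.99 and 7.9 CPM in ∆RPL22A, 9.32 and 7.62 in ∆RPL22B and 9.31 and 7.67 in WT. Monosome and heavy libraries were thus all below all input libraries. The monosome values rest on few counts, 13 and 5 in ∆RPL22A, 2 and 2 in ∆RPL22B and 20 and 2 in WT. Heavy libraries had 16 and 9 counts in ∆RPL22A, 7 and 9 in ∆RPL22B and 7 and 10 in WT. Input libraries had 102 and 74 in ∆RPL22A, 95 and 105 in ∆RPL22B and 92 and 53 in WT. The size of these differences is therefore imprecise. In the light pool QCR6 had 7.03 and 9.63 CPM in ∆RPL22A, 13.1 and 6.01 in ∆RPL22B and 10.1 and 7.17 in WT, and the light and input libraries overlapped in every strain.

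The monosome over input difference of QCR6 was -2.10 ± 0.40 (SE, adjusted p = 6.15e-04) in ∆RPL22A, -3.56 ± 0.55 (SE, adjusted p = 2.08e-05) in ∆RPL22B and -2.43 ± 0.40 (SE, adjusted p = 5.10e-05) in WT. These calls held under every alternative tried. The heavy over input difference was -2.18 ± 0.38 (SE, adjusted p = 3.90e-04) in ∆RPL22A, -2.13 ± 0.40 (SE, adjusted p = 4.84e-04) in ∆RPL22B and -1.90 ± 0.40 (SE, adjusted p = 0.00264) in WT, and the WT call was lost without heavy replicate 1 (adjusted p = 0.0882). Light over input gave 0.05 in ∆RPL22A, 0.19 in ∆RPL22B and 0.05 in WT, none called. QCR7, a bc1 subunit gene of 384 bases against 444 in QCR6, gave 1.36 in ∆RPL22A, 2.38 in ∆RPL22B and 2.44 in WT, all called, the first of them lost without ∆RPL22A input replicate 2 or light replicate 1.

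**Figure D3:**
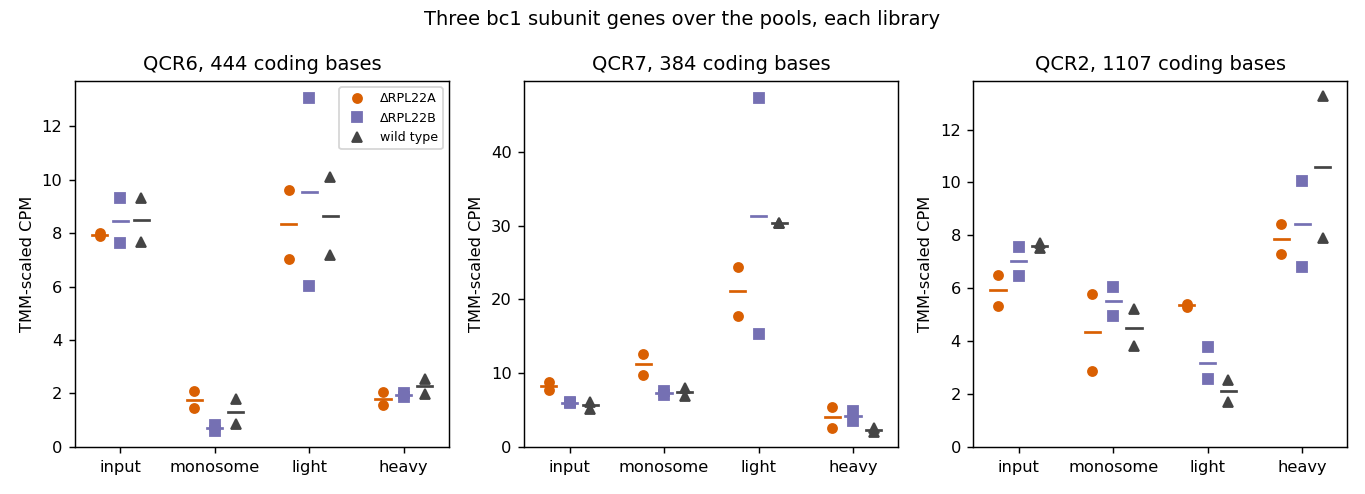
TMM-scaled CPM of QCR6, QCR7 and QCR2 in input, monosome, light and heavy pools, 1 point per library with a bar at the mean of 2, for ∆RPL22A (circles), ∆RPL22B (squares) and wild type (triangles). QCR6 is low in monosome and heavy libraries, QCR7 is high in the light libraries and QCR2 low in the light libraries of ∆RPL22B and wild type.

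In heavy polysomes, the ∆RPL22A libraries held less of several respiratory mRNAs than either other strain. Against WT, 5 members fell and 0 rose, while 3.29% of all tested genes were called and 1.90% were called lower. Against ∆RPL22B, 5 fell and 0 rose, while 5.37% were called and 2.94% called lower. The comparisons share the ∆RPL22A libraries. ATP2, ATP3, COX4 and SDH2 were called in both, ATP1 against WT and SDH4 against ∆RPL22B. ∆RPL22B against WT gave 0 called members against 0.316% of all genes, with 3 members under an unadjusted p of 0.05 and 0 called by DESeq2. The members' median log2 difference was -0.32 for ∆RPL22A against WT and -0.61 for ∆RPL22A against ∆RPL22B, with 24 members negative against WT and 34 against ∆RPL22B, while the medians over all tested genes were 0.03 against WT and 0.00 against ∆RPL22B. Heavy libraries held 208 ± 18.1 CPM of members in ∆RPL22A, 330 ± 28.6 in ∆RPL22B and 291 ± 29.4 in WT (SD, n = 2).

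Among the F1 subunits of ATP synthase, ATP1 (YBL099W) had 17.5 and 14.8 CPM in ∆RPL22A heavy libraries, 21.6 and 24.3 in ∆RPL22B and 34.4 and 38 in WT, and the difference from WT was -1.15 ± 0.26 (SE, adjusted p = 0.010). The 3 strains did not overlap. ATP2 (YJR121W) had 15.4 and 16.6 CPM in ∆RPL22A, 27.6 and 33.7 in ∆RPL22B and 34.4 and 40 in WT. Both ∆RPL22A libraries were lowest, with log2 differences of -1.22 ± 0.28 (SE, adjusted p = 0.0101) from WT and -0.95 ± 0.28 (SE, adjusted p = 0.0436) from ∆RPL22B. The call against ∆RPL22B was lost under relative log expression (RLE) scaling (adjusted p = 0.0574), under TMM without ribosomal DNA (adjusted p = 0.0689), without a count filter (adjusted p = 0.0502), with a replicate block (adjusted p = 0.0523) and without any 1 of the compared libraries. ATP3 (YBR039W), the gamma subunit that forms the rotor shaft, had 2.24 and 1.59 CPM in ∆RPL22A, 5.46 and 6.58 in ∆RPL22B and 5.65 and 10.7 in WT. Its differences were -2.03 ± 0.42 (SE, adjusted p = 0.00421) from WT and -1.59 ± 0.43 (SE, adjusted p = 0.0281) from ∆RPL22B, again with ∆RPL22A apart from the others. ATP3 was also lowest in ∆RPL22A input, where it was not called, with 5.48 and 4.48 CPM. Its input libraries had 10.9 and 10.3 CPM in ∆RPL22B and 7.995 and 8.246 in WT. ATP1 was lowest in ∆RPL22A input as well, without overlap, while the ATP2 input libraries of the strains overlapped.

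COX4 (YGL187C), a zinc-binding subunit of cytochrome c oxidase, had 1.85 and 2.27 CPM in ∆RPL22A heavy libraries, 5.75 and 7.61 in ∆RPL22B and 7.34 and 5.1 in WT. The ∆RPL22A libraries were lower than all others, with log2 differences of -1.62 ± 0.45 (SE, adjusted p = 0.040) from WT and -1.74 ± 0.44 (SE, adjusted p = 0.0187) from ∆RPL22B. SDH2 (YLL041C) had 0.974 and 0.91 CPM in ∆RPL22A, 4.89 and 4.11 in ∆RPL22B and 3.95 and 3.31 in WT, resting on 10 and 4 counts in the ∆RPL22A libraries. Its differences were -1.91 ± 0.43 (SE, adjusted p = 0.00959) from WT and -2.21 ± 0.41 (SE, adjusted p = 0.00175) from ∆RPL22B. SDH4 (YDR178W) had 3.31 and 3.18 CPM in ∆RPL22A, 14.9 and 8.43 in ∆RPL22B and 7.91 and 6.88 in WT, and differed from ∆RPL22B by -1.81 ± 0.38 (SE, adjusted p = 0.00552). For both genes ∆RPL22A was lowest without overlap. SDH2 input libraries, where it was not called, had 1.57 and 1.39 CPM in ∆RPL22A, 2.94 and 2.54 in ∆RPL22B and 1.82 and 1.45 in WT. COX4 was lowest in ∆RPL22A input too, without overlap, while the SDH4 input libraries of the strains overlapped. The heavy pool values alone thus do not separate a difference in this fraction from one in input.

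**Figure D4:**
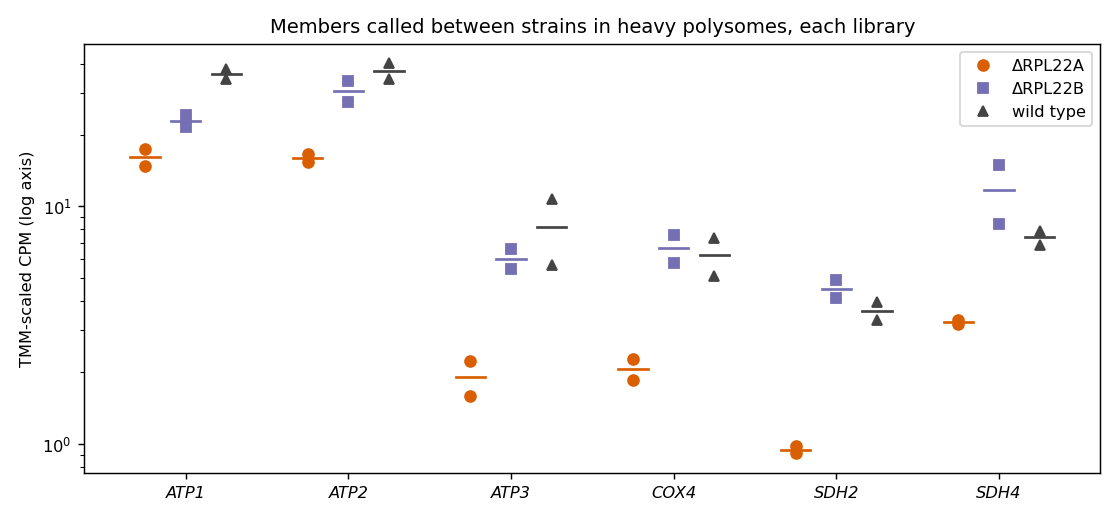
TMM-scaled CPM (log axis) in the heavy polysome libraries for the 6 genes called between strains there, 1 point per library with a bar at the mean of 2. For each gene the 2 ∆RPL22A libraries (circles) lie below the ∆RPL22B (squares) and wild type (triangles) libraries.

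These heavy pool counts depended on every library. Against WT, 0 members were called without ∆RPL22A heavy replicate 1 or 2, 3 without WT heavy replicate 1, namely ATP1, ATP2 and ATP3, and 1, SDH2, without WT heavy replicate 2. Against ∆RPL22B, 0 were called without ∆RPL22A replicate 1, SDH2 and SDH4 without ∆RPL22A replicate 2 or ∆RPL22B replicate 2, and SDH2 alone without ∆RPL22B replicate 1. No called difference changed sign in any of these, and fitting the compared groups alone gave 1 call against WT and 10 against ∆RPL22B. Without the 4 libraries found closest to another pool, 8 members fell and 0 rose against WT.

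In light polysomes ∆RPL22A again held less of some members. Against WT 2 members fell and 0 rose, while 5.39% of all tested genes were called in either direction. The share of all tested genes called lower against WT is not given here. Against ∆RPL22B 5 members fell and 0 rose, while 7.19% of all tested genes were called in either direction and 2.99% called lower. Of the 5, ATP19, COX8 and QCR10 have at most 300 coding bases, and ATP19 and QCR10 are the 2 called against WT. Of other genes of that length, 8.38% were called lower against ∆RPL22B and 10.8% against WT, with median log2 differences of -0.46 against ∆RPL22B and -0.66 against WT. ∆RPL22B against WT gave 0 against 0.353%, with 1 member under an unadjusted p of 0.05 and 0 called by DESeq2. ATP19 (YOL077W-A), subunit k of ATP synthase, had 5.19 and 3.85 CPM in ∆RPL22A light libraries, 5.01 and 25.5 in ∆RPL22B and 19.8 and 23.6 in WT. Its differences were -2.22 ± 0.50 (SE, adjusted p = 0.0053) from WT and -1.71 ± 0.48 (SE, adjusted p = 0.0287) from ∆RPL22B, but ∆RPL22B light replicate 1 lay among the ∆RPL22A libraries. Without ∆RPL22B light replicate 2 the difference from ∆RPL22B was -0.12 (adjusted p = 0.887), and its call was also lost without either ∆RPL22A light library and with only the compared groups fitted. The call against WT was lost without ∆RPL22A light replicate 2 or WT light replicate 2. QCR10 (YHR001W-A), a small bc1 subunit, had 3.0 and 1.93 CPM in ∆RPL22A, 5.62 and 10.8 in ∆RPL22B and 11.3 and 6.74 in WT. It differed by -1.87 ± 0.42 (SE, adjusted p = 0.00605) from WT and -1.67 ± 0.40 (SE, adjusted p = 0.00966) from ∆RPL22B, with ∆RPL22A lowest in every library. Without ∆RPL22A light replicate 2 both calls were lost, as was that against WT without WT light replicate 1 and that against ∆RPL22B without ∆RPL22B light replicate 2 or with only the compared groups fitted.

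The remaining 3 calls were against ∆RPL22B. COX4 had 8.88 and 7.32 CPM in ∆RPL22A light libraries and 12.8 and 31.9 in ∆RPL22B, a difference of -1.44 ± 0.33 (SE, adjusted p = 0.00737). It was -0.65 (adjusted p = 0.185) without ∆RPL22B light replicate 2, and the call was also lost without ∆RPL22A light replicate 2 and with only the compared groups fitted. COX8 (YLR395C) had 12.6 and 6.35 CPM in ∆RPL22A and 11.6 and 33.7 in ∆RPL22B, a difference of -1.21 ± 0.37 (SE, adjusted p = 0.0422) with overlapping libraries. It was -0.25 (adjusted p = 0.671) without ∆RPL22B light replicate 2, and the call was also lost by DESeq2 (adjusted p = 0.0646), with a replicate block (adjusted p = 0.0605), without ∆RPL22A light replicate 2 and with only the compared groups fitted. NDI1 (YML120C) had 1.38 and 1.16 CPM in ∆RPL22A and 4.27 and 3.61 in ∆RPL22B, resting on 12 and 6 counts in ∆RPL22A, a difference of -1.60 ± 0.46 (SE, adjusted p = 0.0317). In input, where it was not called, NDI1 had 2.27 and 1.81 CPM in ∆RPL22A and 3.34 and 3.56 in ∆RPL22B. The NDI1 call was lost without either ∆RPL22A light library, without ∆RPL22B light replicate 1 (adjusted p = 0.0942), with only the compared groups fitted (adjusted p = 0.227) and without the 4 libraries found closest to another pool (adjusted p = 0.141). For COX4 and NDI1 the strains did not overlap. The light comparison of ∆RPL22A with ∆RPL22B gave 15 lower and 0 higher without ∆RPL22B light replicate 1, 2 lower and 2 higher without replicate 2, 0 without ∆RPL22A light replicate 2, and 0 when only these groups were fitted. Against WT the count was 5 without ∆RPL22A light replicate 1, 0 without replicate 2, and 1 without either WT light library. ∆RPL22B against WT gave 1 higher and 4 lower without ∆RPL22B light replicate 2. Without the 4 libraries found closest to another pool, 12 fell and 0 rose against ∆RPL22B, and 4 fell and 1 rose against WT.

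**Figure D5:**
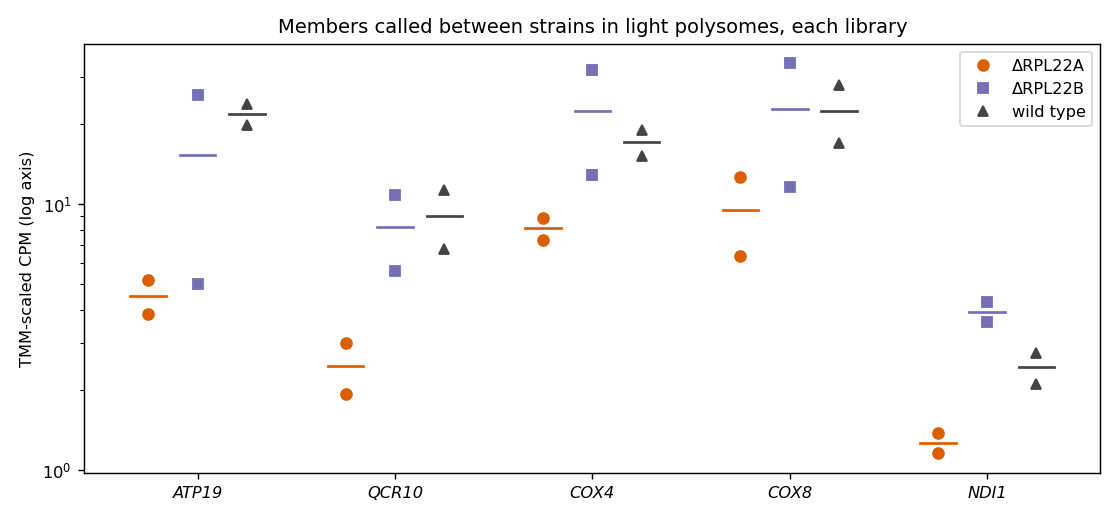
TMM-scaled CPM (log axis) in the light polysome libraries for the 5 genes called between strains there, 1 point per library with a bar at the mean of 2. The ∆RPL22A libraries (circles) lie below the ∆RPL22B libraries (squares) for COX4, QCR10 and NDI1 and overlap them for ATP19 and COX8. The 2 ∆RPL22B libraries are far apart for ATP19, COX4 and COX8.

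In the monosome, NDI1 was the lone member called between strains. It had 1.93 and 0.576 CPM in ∆RPL22A, 6.35 and 1.65 in ∆RPL22B and 5.04 and 6.77 in WT, and differed from WT by -1.97 ± 0.49 (SE, adjusted p = 0.0147). The ∆RPL22A libraries were below the WT libraries but overlapped those of ∆RPL22B, and the call rests on 12 and 2 counts in ∆RPL22A. It was lost without ∆RPL22A monosome replicate 2 and without either WT monosome library. NDI1 was also lowest in ∆RPL22A input, where it was not called. Its input libraries had 2.27 and 1.81 CPM in ∆RPL22A, 3.34 and 3.56 in ∆RPL22B and 3.95 and 3.18 in WT. The monosome comparisons called 5.48% of all tested genes for ∆RPL22A against WT, 0.353% for ∆RPL22B against WT, where 0 members passed, and 3.10% for ∆RPL22A against ∆RPL22B, where 0 members passed. Unadjusted, 3 members were under 0.05 for ∆RPL22B against WT and 6 for ∆RPL22A against ∆RPL22B, and DESeq2 called 0 in each.

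Whether a strain changed the share of an mRNA in a fraction, beyond its change in input, was tested as the difference of the fraction over input ratio between strains. None of the 37 members was called in any of these 9 comparisons by edgeR or by DESeq2. Of all tested genes 0% were called in 8 of them and 0.0558% in the light over input shift of ∆RPL22A against WT. That shift had 14 members with an unadjusted p under 0.05, a median log2 difference of -0.57 over the members and its smallest adjusted p at QCR10, -2.29 ± 0.67 (SE, adjusted p = 0.374). The light shift of ∆RPL22A against ∆RPL22B had 11 such members and a median of -0.50. The heavy shift had 7 for ∆RPL22A against WT, with a median of -0.51, and 10 for ∆RPL22A against ∆RPL22B, with a median of -0.63, where SDH4 had the smallest adjusted p, -1.52 ± 0.53 (SE, adjusted p = 0.308). The other 5 comparisons had 1 such member each. The share of all tested genes under this threshold and their median shifts are not given here. No shift of the members is therefore read from these counts and medians. Without ∆RPL22B light replicate 1 the light shift of ∆RPL22A against ∆RPL22B had 12 lower members.

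The paralogous subunit pairs are COX5A and COX5B, the aerobic and hypoxic forms of oxidase subunit V, and CYC1 and CYC7, the aerobic and hypoxic forms of cytochrome c. COX5A and COX5B are 65.5% identical over their aligned coding sequences, with no shared run over 12 bases, and CYC1 and CYC7 74.9% with a run of 35, so that some CYC reads may be shared. COX5A input libraries had 14.5 and 9.61 CPM in ∆RPL22A, 9.12 and 8.06 in ∆RPL22B and 8.1 and 8.68 in WT. COX5B input libraries had 1.65 and 0.747 CPM in ∆RPL22A, 3.63 and 3.49 in ∆RPL22B and 1.72 and 2.89 in WT. COX5A exceeded COX5B per length in each of the 24 libraries.

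In input the ratio of COX5A to COX5B per kilobase was 8.70 and 12.7 in ∆RPL22A, 2.48 and 2.28 in ∆RPL22B, and 4.64 and 2.96 in WT. The ∆RPL22A ratios lay above the others, yet neither gene was called. COX5A differed by 0.50 ± 0.36 (SE, adjusted p = 0.402) between ∆RPL22A and ∆RPL22B and COX5B by -1.50 ± 0.50 (SE, adjusted p = 0.0708). COX5B was called lower in ∆RPL22A without a count filter (adjusted p = 0.0188), with only the compared groups fitted (adjusted p = 0.0172) and without the 4 libraries found closest to another pool (adjusted p = 0.0116). CYC1 input libraries had 4.07 and 3.1 CPM in ∆RPL22A, 1.96 and 3.41 in ∆RPL22B and 2.23 and 3.18 in WT. Over the 8 libraries of each strain CYC1 had 266 counts in ∆RPL22A, 257 in ∆RPL22B and 232 in WT, and CYC7 had 6 in ∆RPL22A, 31 in ∆RPL22B and 12 in WT, too low for a test.

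Further genes of respiratory function were read as 8 lists with 114 genes, among them assembly factors, translational activators of mitochondrial mRNAs, heme and ubiquinone synthesis, carriers and regulators. In input, 2 of the 110 tested list genes (1.82%) were called in ∆RPL22A against WT, where 4.65% of all tested genes were, and 0 in ∆RPL22B against WT or ∆RPL22A against ∆RPL22B. COQ10, a ubiquinone-binding protein, averaged 3.78 CPM in ∆RPL22A and 1.23 CPM in WT, a log2 difference of 1.65 ± 0.42 (SE, adjusted p = 0.0183 by edgeR). POR1, the porin of the outer membrane, averaged 75.5 CPM in ∆RPL22A and 37.5 CPM in WT, a difference of 1.01 ± 0.30 (SE, adjusted p = 0.0453 by edgeR). Both calls were lost without ∆RPL22A input replicate 1 and without either WT input library, and that of POR1 without the 4 libraries found closest to another pool (adjusted p = 0.111) and with the replicate block (adjusted p = 0.0514). In the monosome 1 list gene rose and 3 fell in ∆RPL22A against WT (3.64%, against 5.48% of all tested genes). Against ∆RPL22B 0 rose and 1 fell (0.909%, against 3.10%). In light polysomes 1 rose and 4 fell against WT (4.55%, against 5.39%), and 1 rose and 5 fell against ∆RPL22B (5.45%, against 7.19%). The gene that rose in light polysomes was POR1, averaging 134 CPM in ∆RPL22A, 47.2 in ∆RPL22B and 51.1 in WT. In heavy polysomes 2 list genes were called in ∆RPL22A against WT (1.82%, against 3.29% of all tested genes) and 7 in ∆RPL22A against ∆RPL22B (6.36%, against 5.37%). Of these, the ubiquinone synthesis gene COQ5 fell in ∆RPL22A against both other strains, as did STF2, a factor that modulates the inhibitor of ATP synthase, both named after their values were seen. COQ5 averaged 4.86 CPM in ∆RPL22A, 11.6 in ∆RPL22B and 12.2 in WT, and its log2 differences were -1.26 ± 0.30 (SE, adjusted p = 0.0143) from ∆RPL22B and -1.32 ± 0.30 (SE, adjusted p = 0.0108) from WT. STF2 averaged 0.649 CPM in ∆RPL22A, 5.71 in ∆RPL22B and 5.08 in WT, and its log2 differences were -2.80 ± 0.61 (SE, adjusted p = 0.00674) from ∆RPL22B and -2.66 ± 0.62 (SE, adjusted p = 0.0120) from WT. Against WT both calls were lost without either ∆RPL22A heavy library or WT heavy replicate 2, that of STF2 also without WT heavy replicate 1, and that of COQ5 also without the 4 libraries found closest to another pool (adjusted p = 0.0626) and with only the compared groups fitted (adjusted p = 0.0924). Against ∆RPL22B that of COQ5 was lost without either ∆RPL22A library or ∆RPL22B replicate 2, and that of STF2 without ∆RPL22B replicate 1. STF2 was not particular to heavy polysomes. It was also called lower in ∆RPL22A in the monosome, with log2 differences of -2.14 from WT and -2.56 from ∆RPL22B. In light polysomes the called differences were -2.41 from WT and -2.28 from ∆RPL22B. STF2 input libraries, where it was not called, had 0.862 and 0.320 CPM in ∆RPL22A, 2.16 and 1.96 in ∆RPL22B and 2.02 and 1.88 in WT. The lists were not independent of earlier results of these data.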

How the data were processed

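RNA was sequenced from input, monosome, light polysome and heavy polysome pools of 3 yeast strains, with 2 biological replicates each; per the design text, reads of 2 lanes were merged. The authors deposited one table of whole-number counts per gene, with no normalization. RSEM 1.2.18, cutadapt 1.4, SAMtools 0.1.19 and the sacCer3 genome build appear in the submitters' processing notes, without an order, and the counting rule and its use of strand were not given in the sources used here. Being whole, counts entered the tests as deposited. Members and gene lists were chosen with earlier results of these data known.

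Library sizes included the 7 rows of ribosomal DNA, and scaling was by TMM. Levels in fractions are relative to each library's scaled total, so the RNA mass of a fraction is not measured. In R 4.3.3, edgeR 4.0.16 kept 5380 genes by filterByExpr (minimum count 10, minimum total count 15) and fitted a mean for each of 12 groups over all 24 libraries by quasi-likelihood, with 12 residual degrees of freedom. Benjamini-Hochberg adjustment ran over all tested genes, with a threshold of 0.05. The SE is the log2 fold change divided by the root of the F statistic. DESeq2 1.42.0, RLE scaling, TMM without ribosomal DNA, no count filter, a fit of the compared groups alone, a replicate block and leaving out libraries were alternatives. Symbols, coding lengths and sequences came from RefSeq R64, the sacCer3 assembly, which matched 5908 of the 6369 genes; positions of the rest were not used. Per-library values are given for members called between strains or in a shift, for the paralog pairs and for the members with the highest and lowest heavy over monosome difference in each strain, and list genes are named where called in input; exceptions are marked in the text. Replicate numbers came from the labels. Deviations of same-numbered libraries from their group means correlated at -0.25 to 0.21 over 18 pairs of pools within a strain, with 3 above 0.1, and at -0.40 to 0.12 over 12 pairs of strains within a pool, so the numbers were not taken as pairs.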

Additional observations from a re-analysis of the deposited data

How the results depend on the processing

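Counts of called members, among 33 comparisons, kept within 1.5 times of the reported count under DESeq2 in all 33, and under RLE scaling and TMM without ribosomal DNA in all but input ∆RPL22A against ∆RPL22B, where each called 1 in place of 0. Under both scalings and without a count filter the ATP2 call in heavy polysomes against ∆RPL22B was lost, as were, by DESeq2, that of COX8 in light polysomes against ∆RPL22B and that of SDH2 in heavy over monosome of ∆RPL22B. Without a count filter, input ∆RPL22A against ∆RPL22B had 3 in place of 0, and monosome ∆RPL22A against WT had 2. Monosome ∆RPL22A against ∆RPL22B then had 1, light ∆RPL22A against WT 5 and the light shift of ∆RPL22A against WT 1. Fitting only the compared groups gave, in input, 1 for ∆RPL22A against WT and 4 against ∆RPL22B. In the monosome it gave 8 for ∆RPL22A against WT, 1 for ∆RPL22B against WT and 4 for ∆RPL22A against ∆RPL22B. In the light pool it gave 7 for ∆RPL22A against WT and 0 against ∆RPL22B, and in the heavy pool 1 and 10. Heavy over input in ∆RPL22B gave 13, heavy over monosome 10 in ∆RPL22B and 7 in WT, the light shift of ∆RPL22A against WT 1 and the heavy shift of ∆RPL22A against ∆RPL22B 2. Without the 4 libraries found closest to another pool, the count was 2 for input ∆RPL22A against ∆RPL22B, 5 and 12 for light ∆RPL22A against WT and against ∆RPL22B, and 8 for heavy ∆RPL22A against WT. It was then 18 for monosome over input in ∆RPL22A, 8 for heavy over input and 6 for heavy over monosome in WT, and 1 and 2 for the light shifts of ∆RPL22A against WT and against ∆RPL22B. The causes were not tested.

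Leaving out each compared library in turn left 0 calls in all input comparisons. The range was 0 to 1 for monosome ∆RPL22A against WT and against ∆RPL22B, 0 to 5 for light ∆RPL22A and light ∆RPL22B against WT, and 0 to 15 for light ∆RPL22A against ∆RPL22B. It was 0 to 3 for heavy ∆RPL22A against WT, 0 to 2 against ∆RPL22B, and 0 to 12 for the light shift of ∆RPL22A against ∆RPL22B. Over input, the ranges in ∆RPL22A were 2 to 7 for monosome, 1 to 21 for light and 1 to 7 for heavy, in ∆RPL22B 9 to 13 for monosome and 4 to 5 for heavy, and in WT 4 to 9 and 0 to 3. Heavy over monosome ranged from 3 to 11 in ∆RPL22A, 0 to 2 in ∆RPL22B and 1 to 7 in WT. Among single genes the sign changed for QCR6 in light over input alone, which was not called under any alternative. Leaving out 1 library gave -0.18 to 0.28 in ∆RPL22A, -0.49 to 0.63 in ∆RPL22B and -0.25 to 0.25 in WT, and leaving out the 4 libraries gave -0.17 in ∆RPL22A and -0.48 in ∆RPL22B. In WT it was also -0.05 without input replicate 2. With the lone library of a reduced group assumed to vary like the others, fewer samples are part of these losses by construction.

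A replicate block over the shared numbers, which the data did not show to pair the libraries, kept each count within 1.5 times: light over input 22, 29 and 29 calls in ∆RPL22A, ∆RPL22B and WT, and heavy ∆RPL22A against WT 5. It ended the calls of COX8 in light polysomes (adjusted p = 0.0605) and ATP2 in heavy polysomes (adjusted p = 0.0523), both against ∆RPL22B, and of POR1 in input, and changed no other call of a single gene. At 782 to 6034 counts over all members per library, low members such as NDI1, SDH2 and CYC7 are the least precise.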
